A study of Mus musculus with 9 samples.

Results

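DNA methylation in mammalian cells is written, copied and removed by a small set of enzymes, and the transcripts of 8 of these genes were examined here in mouse embryonic stem cells (mESCs) with and without RING1B activity. The genes were Dnmt1, Dnmt3a, Dnmt3b, Dnmt3l, Uhrf1, Tet1, Tet2 and Tet3. They were taken as those of the family with a probe in the series table, by the RefSeq accession or symbol that names the probe or by the Ensembl gene that the table assigns to it. All 8 had at least 1 probe, and together they had 19 of the 30170 probes and made up 8 of the 21677 genes tested. Where a gene had several probes, each is given, and the brightest (highest mean over the 9 arrays) stands for the gene.

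The study asked how far the repression of genes by RING1B depends on its ability to attach ubiquitin to histone H2A. RING1B, encoded by Rnf2, is the main ligase of Polycomb repressive complex 1 (PRC1) in these cells. RNA from 9 samples of male E14Tg2a mESCs of the 129P2/OlaHsd strain, a line grown from a blastocyst, was hybridised to 1 single-colour Agilent array each, with 3 samples in each of 3 groups. WT cells were the unmodified parental line. Ring1B-/- cells (KO) lacked exon 3 of Rnf2 on both alleles, and Ring1B I53A/I53A cells (I53A) carried on both alleles a knock-in that swaps an isoleucine of RING1B for alanine, so that the protein still enters PRC1 but no longer works as a ligase. All 3 groups were grown on gelatin in medium with serum and the cytokine LIF, which keeps mESCs undifferentiated. No second, independently made line of either genotype is described for the arrays, so a difference between groups may belong to a line. The table's columns for KO carry a single clone name. The study's methods call the 3 samples of a group biological replicates and do not say what was replicated, so the p-values cover how these 3 samples varied. Each group also occupied its own column of the slides, and group and column cannot be told apart.

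Cytosine in CpG dinucleotides is methylated anew by DNMT3A and DNMT3B, which the inactive relative DNMT3L stimulates in embryonic stem cells and germ cells. After DNA replication UHRF1 binds the CpG sites that carry methylation on 1 strand and brings in DNMT1, which methylates the other strand. The TET enzymes oxidise methylcytosine, which opens the way to its loss. Mouse ESCs in serum express Dnmt3b, Dnmt3l, Dnmt1, Uhrf1, Tet1 and Tet2 and carry a highly methylated genome, in which CpG islands bound by Polycomb proteins stay free of methylation.

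All array values below are log2 signal, that is the log2 of the fluorescence intensity of a probe after quantile normalisation, so a difference of 1 is 2-fold. Signals of different probes depend on their sequence and were not set against each other. A probe was called well above background by the scanner software for each array separately. A gene passed the test at a limma p under 0.05 after Benjamini-Hochberg adjustment over all probes, and it is said to have risen or fallen where it also differed by more than 2-fold. The arrays measure RNA of a cell population, in which fewer cells with a transcript and less of it per cell cannot be told apart.

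The single probe of Rnf2 read 8.32, 8.27 and 8.47 in WT, 7.35, 7.92 and 8.08 in KO and 8.69, 9.10 and 8.59 in I53A, which left KO below WT (log2 fold change -0.57, SE 0.26, limma adjusted p 0.288) and I53A above WT (0.44, adjusted p 0.66), both short of the threshold. Whether this probe lies in the deleted exon was not established, so it does not check the labels. Each array held between 45.6% and 57.7% of the tested probes well above background. All 9 measured markers of ES cells were well above background on every array, and 1 of them, the pluripotency factor Sox2, fell in KO (log2 fold change -1.03, SE 0.24, limma adjusted p 0.0425). Of 9 primitive endoderm markers, 4 rose in KO (Col4a1, Gata4, Gata6 and Sox17) and none in I53A. Their summed linear signal ran from 312 to 498 in WT, from 888 to 1627 in KO and from 335 to 386 in I53A. Of those that rose, Gata4 was above background on 2 of 3 KO arrays and Sox17 on 1, and neither was on any WT array. Of the rest, Sox7, Foxa2 and Dab2 were not above background on any array. Trophoblast markers rose in KO in 2 of 8 cases (Ascl2 and Eomes), with a summed signal between 6705 and 6784 in KO against 10073 to 11225 in WT and 11262 to 14256 in I53A. At an unadjusted limma p under 0.05, 2 of these 8 were higher and 4 lower in KO (Hand1, Krt8, Krt18 and Tfap2c lower), and the list median was -0.41. Of all genes 18.3% were higher or lower in KO by that rule. Neural markers rose in KO in 2 of 6 cases (Nes and Neurog1) and in I53A in 1 (Nes). Neither was above background on any WT array, and Neurog1 was on only 1 KO array. Of 10 fibroblast and feeder markers Thy1 rose in KO, while Col1a2 passed the test in the lower direction at under 2-fold (log2 fold change -0.98, limma adjusted p 0.0255). At an unadjusted p under 0.05, 1 of these 10 was higher and 4 were lower in KO. The part of these other cell types in the values below was not tested.

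The probes are the physical readout of each gene, and those of 3 genes whose probes did not give 1 answer are shown first. Each is 60 bases long, and its first 30 bases are given 5′ to 3′ as in the array design, in lower case because no base is marked. All 3 probes of Dnmt3b are shown, both of Tet2, and of the 6 of Tet1 the brightest and the one with the largest difference.
Dnmt3b A_55_P2008874: tcaggtccccagaaccccctagttcctcat
Dnmt3b A_55_P2130535: gtgcaaagatgacagatgcccagagtttac
Dnmt3b A_55_P1975903: tgtttgcccccttgaaggaccactttgcct
Tet1 A_30_P01028194: atattgagtcctctgcacagaatgggacgc
Tet1 A_30_P01030720: ggaattgcatgttacttgaaagatctaatt
Tet2 A_55_P2081303: gcttacttcctgagattttggctttgttta
Tet2 A_55_P2051405: acgcacagtgatgtatagttcactttacaa

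The CpG content before the annotated starts of the members differed widely, which matters because the enzymes act on CpG and because PRC1 gathers at CpG-rich starts. The dinucleotide CG, which reads the same on both strands, was counted in the 250 bases before each annotated start in RefSeq (GRCm38.p6), where all 8 members had at least 1 start. Dnmt3b had 1 start (chromosome 2, 153649199 to 153649448, plus strand) with 21 CG, and 16.3% of the 32851 promoters in the table had at least as many. Dnmt3l had 3 starts with 5, 4 and 3 CG, and 55.6% of all promoters had at least the 5 of its first start (chromosome 10, 78042037 to 78042286, plus strand). These 2 are printed, with CG in capitals, because Dnmt3b and Dnmt3l were the de novo genes with the largest differences between groups.
Dnmt3b, chr2:153649199-153649448: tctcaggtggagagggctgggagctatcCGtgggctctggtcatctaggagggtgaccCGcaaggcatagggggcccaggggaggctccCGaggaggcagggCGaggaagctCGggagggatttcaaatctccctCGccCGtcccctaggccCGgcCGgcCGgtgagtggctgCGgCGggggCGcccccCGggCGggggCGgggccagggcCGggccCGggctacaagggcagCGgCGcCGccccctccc
Dnmt3l, chr10:78042037-78042286: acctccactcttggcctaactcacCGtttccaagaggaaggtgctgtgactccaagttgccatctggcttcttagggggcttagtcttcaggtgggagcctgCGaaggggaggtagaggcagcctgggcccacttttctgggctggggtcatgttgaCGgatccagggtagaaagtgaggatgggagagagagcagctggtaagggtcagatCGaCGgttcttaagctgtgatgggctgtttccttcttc
Tet2 had 51 CG before its single start, a count reached by 0.067% of all promoters, and Dnmt3a had 38, 40 and 15 before its 3 starts. Tet3 had 17, Tet1 had 15, Uhrf1 had 10 and 30 before its 2 starts, and Dnmt1 had 26, 7 and 2 before its 3. The median over all promoters was 6. Some of these stretches lay inside the bounds of the gene given below, among them those of Tet2, Tet3 and Dnmt3a, and so before an internal start. A match of letters says nothing of methylation at these sites, which the arrays did not measure.

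None of the 8 genes passed the test between any pair of groups. In KO against WT 0 of 8 were called in limma, while 4.1% of all genes tested were called. In I53A against WT 0 of 8 were called, against a background of 0.401%, and in KO against I53A 0 of 8, against 1.47%. At an unadjusted p under 0.05 there were 2 of 8 in KO against WT (Dnmt1 lower, Dnmt3l higher; 18.3% of all genes), 1 in I53A against WT (Dnmt3b higher; 9.78%) and 1 in KO against I53A (Dnmt3b lower; 11.7%). These counts lay near the background shares. The median log2 fold change of the members was 0.17 in KO against WT, 0.10 in I53A against WT and -0.01 in KO against I53A, where the medians of all genes were -0.02, -0.01 and -0.02.

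The lack of a call did not mean that the levels were equal, because the differences were measured with some width. The standard errors of the 8 genes ran from 0.21 to 0.34 on the log2 scale, and the median over all genes was 0.30. The 95% intervals of the genes' KO-against-WT differences reached -1.35 at their lowest end and 1.13 at their highest, so that changes of 2-fold remained within the intervals for Dnmt1, Dnmt3l and Tet2. In I53A against WT the interval of Dnmt3b reached 1.24, and that of Tet2 reached -1.14.

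**Figure D1:**
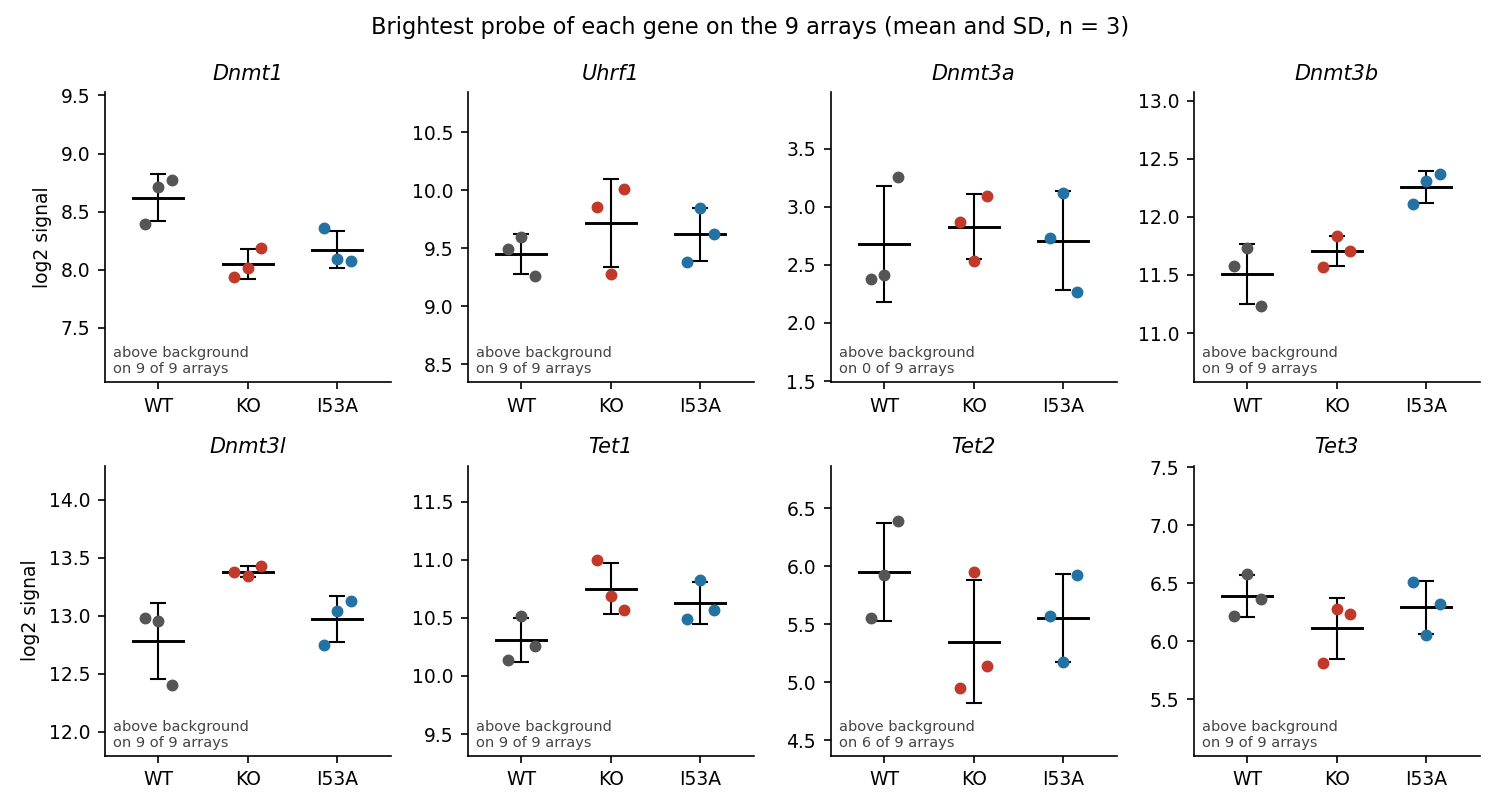
Log2 signal of the brightest probe of each gene on the 9 arrays, with 1 point per array, black bars for the group mean and whiskers for the SD (n = 3); every panel spans the same range of 2.5 log2 units around its own centre. Dnmt1 was highest in the 3 WT arrays, Dnmt3l in the 3 KO arrays and Dnmt3b in the 3 I53A arrays, and Dnmt3a was not above background on any array.

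Of the maintenance genes, Dnmt1 read lower in both mutants and Uhrf1 did not separate the groups. Dnmt1 (chromosome 9, 20907206 to 20959888 in GRCm38) encodes the methyltransferase that copies methylation to the new strand, and its single probe gave 8.39, 8.71 and 8.77 in WT, 7.94, 8.01 and 8.19 in KO and 8.36, 8.09 and 8.07 in I53A. Every mutant array lay below every WT array, closest at 8.36 in I53A 1 against 8.39 in WT 1. The log2 fold change was -0.57 in KO (SE 0.21, 95% interval -1.05 to -0.10, limma adjusted p 0.192) and -0.45 in I53A (SE 0.21, interval -0.93 to 0.02, adjusted p 0.574), a level 1.49-fold and 1.37-fold lower. KO and I53A overlapped and differed by -0.12 (interval -0.60 to 0.36). In KO against WT, 3 of the 8 genes did not overlap between groups (Dnmt1 lower, Dnmt3l and Tet1 higher), and so did 25.7% of all genes.

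Uhrf1 (chromosome 17, 56303337 to 56323486) encodes the protein that recognises hemimethylated CpG and recruits DNMT1. Its brightest probe gave 9.49, 9.60 and 9.26 in WT, 9.86, 9.28 and 10.01 in KO and 9.38, 9.85 and 9.62 in I53A. The groups overlapped, with log2 fold changes of 0.27 in KO (SE 0.26, 95% interval -0.30 to 0.83) and 0.17 in I53A (interval -0.40 to 0.74). The second probe, A_66_P120074, ran from 5.98 to 7.13 in WT, 5.77 to 7.06 in KO and 5.63 to 7.37 in I53A, and its differences of -0.06 in KO and 0.31 in I53A had the widest SE of the 19 probes, 0.51.

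Among the de novo genes Dnmt3b stood highest in I53A and Dnmt3l in KO, and Dnmt3a could not be read. Dnmt3b (chromosome 2, 153649411 to 153687730) encodes the de novo methyltransferase most abundant in the early epiblast. Its brightest probe gave 11.58, 11.73 and 11.23 in WT, 11.57, 11.84 and 11.71 in KO and 12.11, 12.31 and 12.37 in I53A. All 3 I53A arrays lay above all 6 others, while KO and WT overlapped. The I53A value was 1.68-fold higher than WT (log2 fold change 0.75, SE 0.22, 95% interval 0.26 to 1.24, unadjusted p 0.00651, limma adjusted p 0.271), the lowest unadjusted p of any of the 8 genes in any comparison. In I53A against WT, 2 of 8 genes did not overlap (Dnmt1 lower, Dnmt3b higher), against 18.4% of all genes.

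At the other probes of Dnmt3b the KO arrays, and not the I53A arrays, did not overlap WT, and neither KO difference passed the test. Between KO and WT 24.2% of all probes did not overlap. Probe A_55_P2130535 gave 10.61, 10.68 and 10.90 in WT, 10.12, 10.22 and 10.14 in KO and 10.82, 11.20 and 10.68 in I53A. Probe A_55_P1975903 gave 9.23, 9.67 and 9.21 in WT, 8.97, 8.97 and 9.0 in KO and 9.91, 9.28 and 9.73 in I53A. At both, the 3 KO arrays were the lowest of the 9, and WT and I53A overlapped. Against WT the KO differences were -0.57 (limma adjusted p 0.205) and -0.39 (adjusted p 0.454), where the brightest probe gave 0.19. In I53A against WT all 3 differences were above 0, with overlap at these 2 probes (0.17 and 0.27). Between the mutants KO lay below I53A without overlap at all 3, by -0.56 (SE 0.22, limma adjusted p 0.351), -0.74 (SE 0.22, adjusted p 0.177) and -0.66 (SE 0.24, adjusted p 0.303). In that comparison 2 of 8 genes did not overlap (Dnmt3b lower, Dnmt3l higher), as did 16% of all genes. At an unadjusted p under 0.05 the 3 Dnmt3b probes were the only ones of the 19, where 11.3% of all probes passed.

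Dnmt3l (chromosome 10, 78042287 to 78063622) encodes the partner without catalytic activity that stimulates DNMT3A and DNMT3B. Its single probe gave 12.98, 12.95 and 12.40 in WT, 13.38, 13.34 and 13.43 in KO and 12.75, 13.04 and 13.13 in I53A. The 3 KO arrays were the highest of the 9, and WT 3 was the lowest. KO was 1.52-fold above WT (log2 fold change 0.61, SE 0.23, 95% interval 0.09 to 1.13, limma adjusted p 0.204), and I53A differed from WT by 0.20 (interval -0.32 to 0.72).

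Dnmt3a (chromosome 12, 3801559 to 3914443), which encodes the second active de novo methyltransferase, had 1 probe, with values from 2.27 to 3.26 over the 9 arrays. It was not well above background on any of them, so its differences are not read as folds and nothing is said of the gene's level in these cells.

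**Figure D2:**
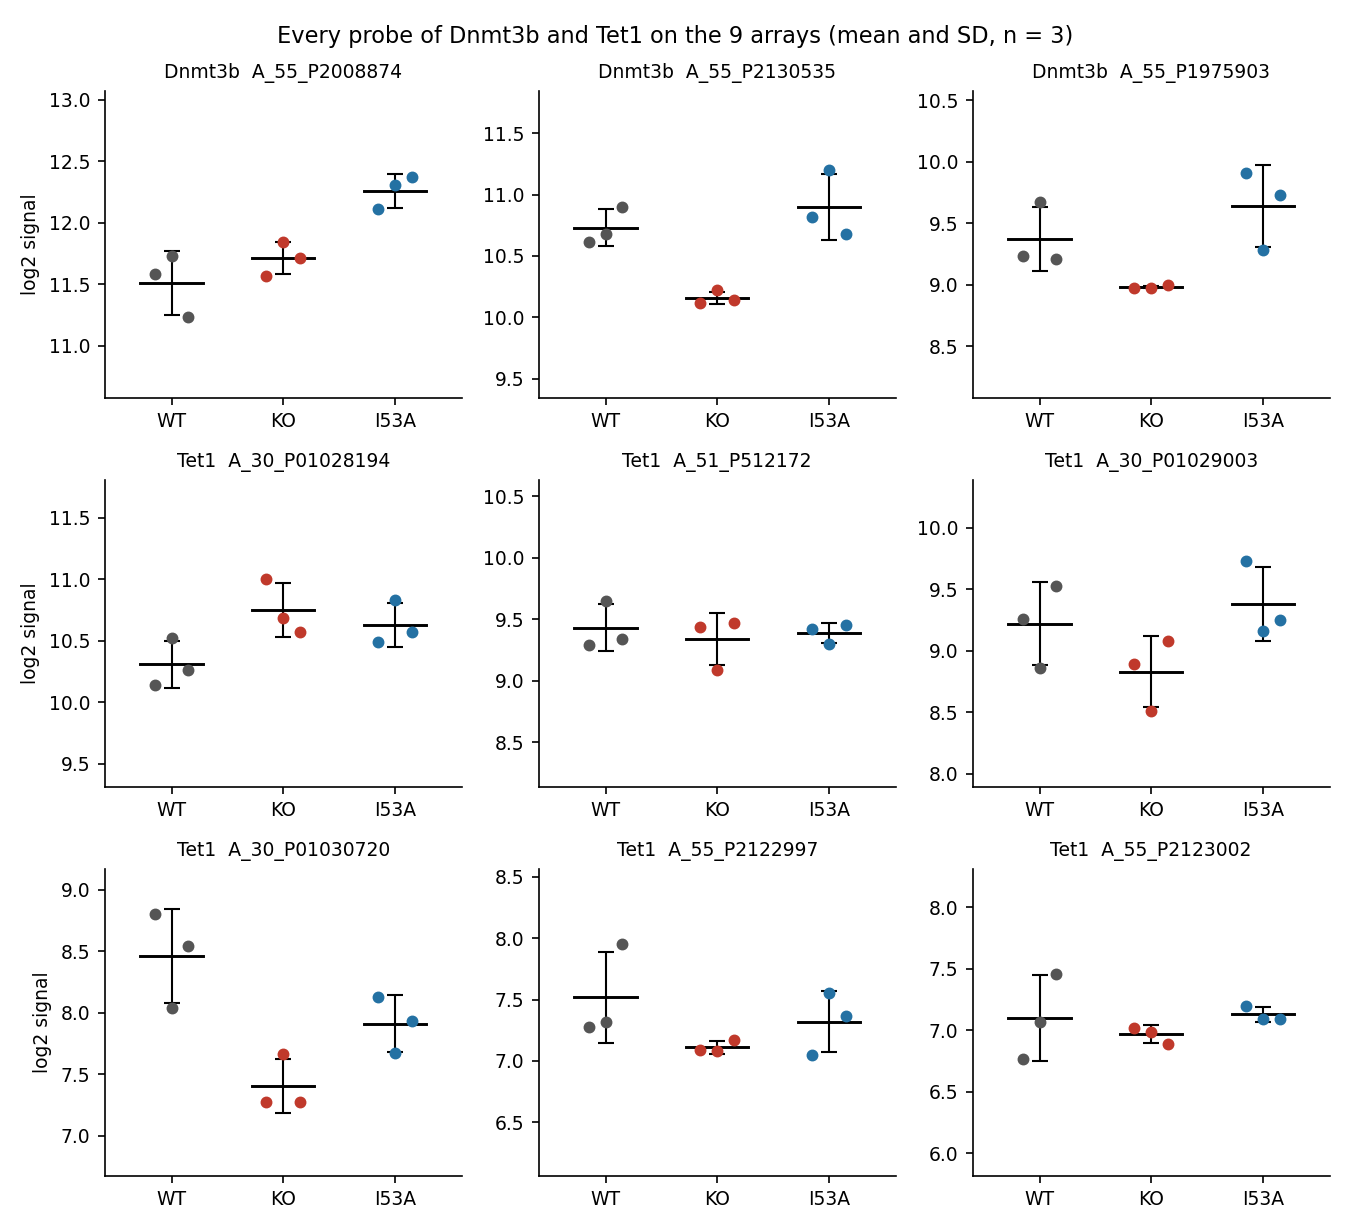
Log2 signal of the 3 probes of Dnmt3b and the 6 probes of Tet1 on the 9 arrays, with 1 point per array, black bars for the group mean and whiskers for the SD (n = 3); every panel spans 2.5 log2 units. The KO arrays were lowest at both other Dnmt3b probes but not at the brightest, and for Tet1 they were highest at the brightest probe and lowest at A_30_P01030720.

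The probes of Tet1 disagreed on the direction of the KO difference. Tet1 (chromosome 10, 62804570 to 62887469) encodes the TET enzyme best known in mESCs, where it sits at CpG-rich promoters. Its brightest probe gave 10.14, 10.52 and 10.26 in WT, 11, 10.69 and 10.57 in KO and 10.49, 10.83 and 10.57 in I53A. The KO arrays lay above the WT arrays, closest at 10.57 against 10.52, and the log2 fold change was 0.44 (SE 0.22, 95% interval -0.05 to 0.94, limma adjusted p 0.348). I53A overlapped both groups.

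At the Tet1 probe A_30_P01030720 the order was the opposite, with 8.80, 8.04 and 8.54 in WT, 7.27, 7.66 and 7.27 in KO and 8.13, 7.67 and 7.93 in I53A. All 3 KO arrays were below the 6 others. KO was 2.09-fold below WT (log2 fold change -1.06, SE 0.26, 95% interval -1.64 to -0.48, unadjusted p 0.00213, limma adjusted p 0.0504), just outside the threshold. This probe passed when dim probes were left out of the table (adjusted p 0.016) and without WT 2 (0.0448), and within slide 1 alone its difference was -0.96 (adjusted p 0.304). The 4 remaining probes gave KO differences from -0.40 to -0.09.

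The name Tet1 rests on different grounds for these probes. Both probes above, and 1 more, carry in the array design the name of a stretch of chromosome 10 and no gene, and they count as Tet1 because the series table assigns them the Ensembl gene. Another is assigned in the same way. The remaining 2 are named by an accession that RefSeq gives for Tet1. The brighter of these, A_51_P512172, gave 9.29, 9.65 and 9.34 in WT, 9.44, 9.09 and 9.47 in KO and 9.42, 9.30 and 9.45 in I53A, with differences of -0.09 in KO (SE 0.22, 95% interval -0.57 to 0.39) and -0.04 in I53A (interval -0.52 to 0.44). Where each probe lies in the Tet1 transcript was not established.

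Tet2 read lower in both mutants at both its probes, near the limit of detection. The gene (chromosome 3, 133463677 to 133545136) encodes a TET enzyme that lacks the CpG-binding domain of its relatives. Its brightest probe gave 5.55, 5.92 and 6.39 in WT, 4.95, 5.95 and 5.14 in KO and 5.57, 5.17 and 5.92 in I53A, and was well above background on 3, 1 and 2 of the 3 arrays. The groups overlapped, with differences of -0.60 in KO (SE 0.34, limma adjusted p 0.4) and -0.40 in I53A (adjusted p 0.769).

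Probe A_55_P2051405 gave 4.38, 5.32 and 5.26 in WT, 4.09, 4.10 and 3.52 in KO and 3.29, 2.98 and 3.59 in I53A. The WT arrays were the 3 highest, but only 1 of them and no mutant array was well above background. By the group means WT was 2.12-fold above KO (limma adjusted p 0.0892) and 3.24-fold above I53A (adjusted p 0.0636), neither past the threshold. For such dim probes, a signal of the dimmer group below the lowest one well above background on its array was raised to it. This left both mutant means unchanged here, so the folds are estimates and not lower bounds.

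Tet3 (chromosome 6, 83362373 to 83457208), the TET enzyme of the oocyte and zygote, showed no separation of the groups. Its brightest probe lay between 6.22 and 6.58 in WT, 5.81 and 6.28 in KO and 6.05 and 6.51 in I53A, with differences of -0.28 in KO (SE 0.23, 95% interval -0.80 to 0.24) and -0.09 in I53A (interval -0.62 to 0.43). The other probes gave -0.41 and -0.26 in KO and -0.22 and 0.53 in I53A, none past an unadjusted p of 0.05.

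Counted over probes, 0 of 19 passed the limma test in KO against WT (3.84% of all probes), I53A against WT (0.328%) or KO against I53A (1.33%). At an unadjusted p under 0.05 there were 5 of 19 in KO against WT (17.4%) and 2 of 19 in I53A against WT (9.2%). The KO difference was below 0 at 14 of 19 probes, although it was below 0 at 3 of the 8 brightest probes, and 8 of 19 probes did not overlap between KO and WT (24.2%), 6 of them lower in KO (12.6%). Probes of 1 gene share their transcript and are not independent.

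**Figure D3:**
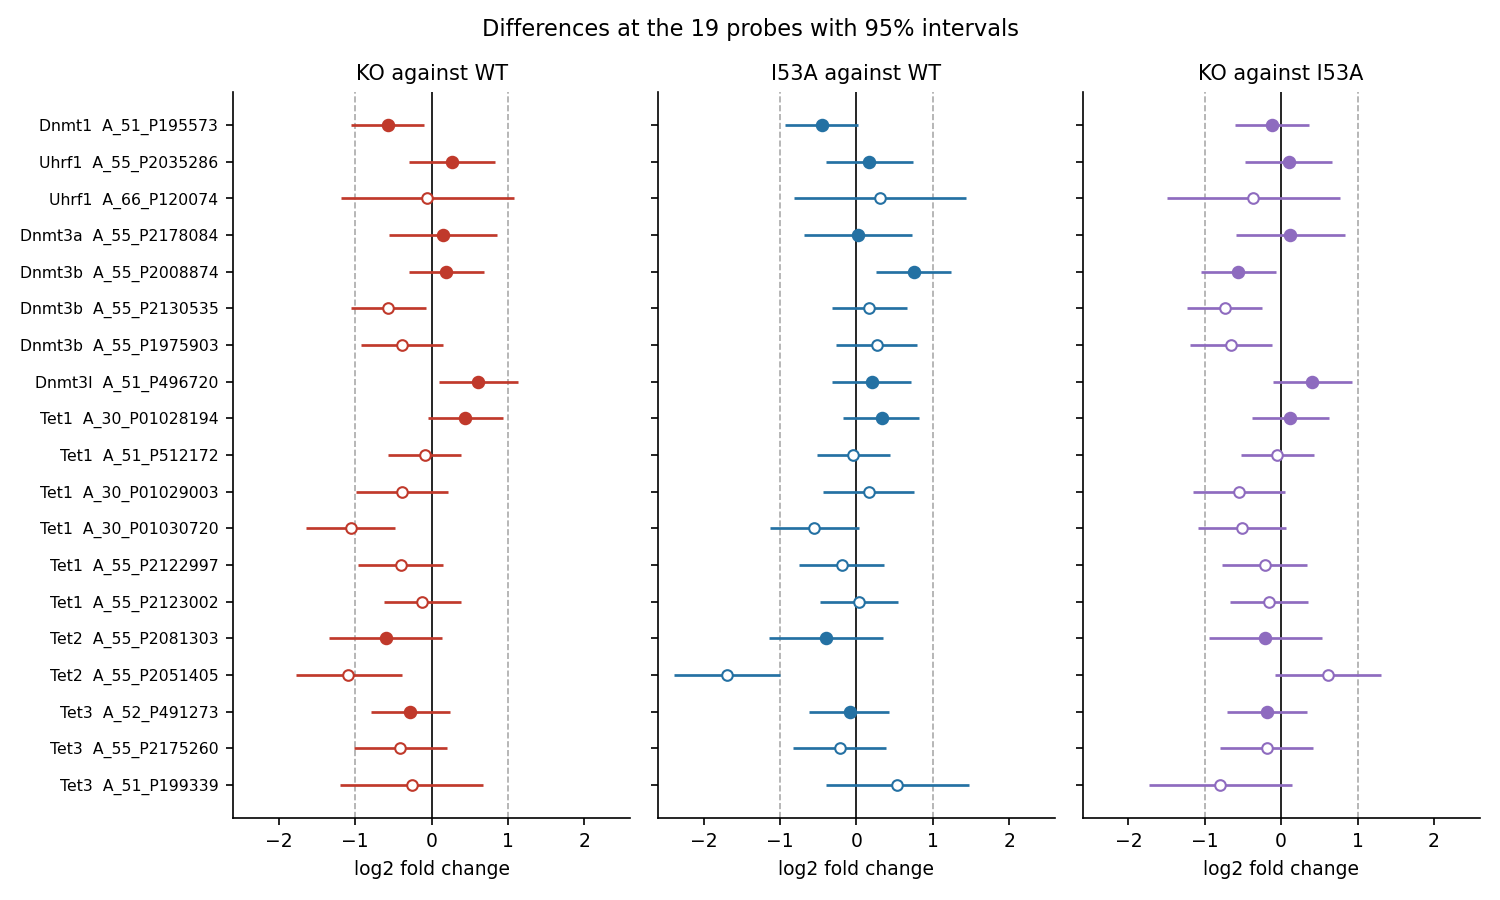
Log2 fold change of each of the 19 probes in the 3 comparisons, with 95% intervals from the limma fit; filled points mark the brightest probe of a gene, open points its other probes, and dashed lines a 2-fold difference. The intervals of A_30_P01030720 (Tet1) and A_55_P2051405 (Tet2) lie below 0 in KO against WT, and the 3 Dnmt3b probes lie below 0 together in KO against I53A.

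Dnmt1 and Dnmt3b, the members with the lowest p against WT in KO and in I53A, were compared with all other genes whose brightest probe was above background on the 9 arrays, 9080 in number, to find the most similar profiles. For Dnmt1 these were Alms1 (Pearson r 0.953), Gsr (0.951) and Coq8a (0.943), and for Dnmt3b they were Tmem123 (0.987), Akr1b10 (0.978) and Scube3 (0.977), each over the 9 arrays, which include the differences between the groups. Gsr, which encodes glutathione reductase, fell in KO (log2 fold change -1.06, limma adjusted p 0.0344). The other 5 did not pass the test in any comparison.

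The wider pathway was described with 9 lists of genes that work with the members, respond to them or accompany their regulation, and 97 genes of these were measured. In KO 15 rose and 4 fell, in I53A 7 rose and 0 fell, and between KO and I53A 6 were higher and 3 lower in KO, where 2.93% and 1.17%, 0.291% and 0.111%, and 1.06% and 0.406% of all genes did so. The 15 include Sall2, which was not above background on any WT or KO array. At an unadjusted p under 0.05, 17 of the 97 were higher and 11 lower in I53A. By that rule 9.78% of all genes were higher or lower in I53A and 18.3% in KO, also for the lists below. Of the 7 that rose in I53A, 5 were germline genes. The lists were written with earlier results of these arrays known. Below, the call of a named list gene counts as kept or lost under an alternative by its adjusted p alone, without the 2-fold rule.

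Of 8 partners of maintenance methylation, 1 fell in KO and none rose. Cdca7, whose protein forms a chromatin remodelling complex with HELLS, had a mean of 9.13 ± 0.10 in WT, 7.96 ± 0.20 in KO and 8.72 ± 0.25 in I53A (SD, n = 3), a 2.25-fold drop in KO (log2 fold change -1.17, SE 0.22, limma adjusted p 0.0176). Its call was lost without WT 1, WT 3 or KO 3, with 75th percentile scaling and within slide 1, which held 2 arrays of each group. None of the list passed in I53A, where 2 were lower at an unadjusted p under 0.05. The median was -0.16 in KO and -0.31 in I53A. Among 10 proteins that read methylated CpG none passed limma in any comparison, nor at an unadjusted p under 0.05.

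Genes of the repair of oxidised or deaminated methylcytosine and of TET partners (16 measured) moved in both directions. Gadd45g, a stress-induced gene linked to DNA demethylation, had means of 8.22 ± 0.58 in WT, 10.20 ± 0.10 in KO and 10.49 ± 0.62 in I53A. It rose 3.92-fold in KO (log2 fold change 1.97, SE 0.36, limma adjusted p 0.0141) and 4.82-fold in I53A (2.27, SE 0.36, adjusted p 0.0362). Neil2, a DNA glycosylase, fell 2.69-fold in KO, where 2 of 3 arrays were above background (adjusted p 0.0151). The Gadd45g call in KO was lost without WT 1, WT 3 or KO 3, and in I53A it held only without WT 2 or I53A 1 among the 9 fits that left out 1 array. The KO call was also lost with normexp background correction and within slide 1, and the I53A call under 6 of the 8 other alternatives. The Neil2 call was lost without WT 1 or WT 3 and within slide 1. List medians were -0.28 in KO and 0.08 in I53A.

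Of 6 proteins that bind unmethylated CpG, Cxxc5 fell. It had means of 9.71 ± 0.13 in WT, 7.74 ± 0.21 in KO and 8.87 ± 0.11 in I53A, with no overlap between any 2 groups. The KO drop was 3.94-fold (log2 fold change -1.98, SE 0.21, limma adjusted p 0.000683). Its adjusted p stayed under the threshold in all 9 fits that left out 1 array and under the 8 other alternatives. I53A differed from WT by -0.85 (adjusted p 0.18), and KO lay below I53A by -1.13 (adjusted p 0.0308), a call kept in 1 of the 9 fits, that without KO 1, and lost with 75th percentile scaling, the replicate block, the 2 groups alone and within slide 1.

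Of 12 factors known to set methylation in ES or germ cells, Dppa3, which protects DNA from methylation changes in the egg and zygote and restrains UHRF1, rose 1.31 log2 units in KO (SE 0.28, limma adjusted p 0.0286), from 6.15 ± 0.37 to 7.46 ± 0.28, and read 6.39 ± 0.34 in I53A. Without WT 1, WT 3, KO 1 or KO 2, with the replicate block or within slide 1 it no longer passed. With normexp Dppa3 did not count as risen in KO. Prdm14, a repressor of the de novo methyltransferase genes in naive mESCs, read 6.2 ± 0.08 in WT, 6.16 ± 0.09 in KO and 5.07 ± 0.25 in I53A. Its probe was above background on 2 of 3 I53A arrays. I53A lay below WT by -1.13 (SE 0.21, limma adjusted p 0.0682), which did not pass. KO lay 2.13-fold above I53A (adjusted p 0.0383), a call that only the fit without I53A 3 kept among the 9, and 2 of the 8 other alternatives. Of 7 genes for the supply of methyl groups and cofactors none passed limma in any comparison. Mat2b had the lowest p in KO (log2 fold change 0.82, adjusted p 0.153), and 1 gene was higher in KO and 1 lower in I53A at an unadjusted p under 0.05.

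Dnmt3b and Dnmt3l are also used as markers of the way from the naive to the primed state of pluripotency, and the genes of these states were listed beside them. Of 9 formative and primed genes, Sall2 was the only one past the test against WT. It rose 6.89-fold in I53A (limma adjusted p 0.00549), an estimate from WT signals not above background. It passed in KO too (adjusted p 0.0231), but it was not above background on any WT or KO array, so no fold is given for KO. There the call was lost without WT 1, WT 3, KO 1 or KO 3, with normexp, the 2 groups alone and within slide 1. The I53A call was lost within slide 1, and with normexp Sall2 did not count as risen in I53A. The list medians were 0.79 in KO and 1.03 in I53A, and 5 and 7 of the 9 genes were higher at an unadjusted p under 0.05. Of all genes 18.3% in KO and 9.78% in I53A were higher or lower by that rule. Fgf5 and Dusp6 were lower in KO than in I53A, Fgf5 by 3.46-fold (adjusted p 0.0235, not above background in KO or WT) and Dusp6 by -1.34 (SE 0.24, adjusted p 0.0273). Leaving out 1 array ended the Fgf5 call in 4 of 9 fits (KO 1, KO 3, I53A 1 or I53A 3) and kept that of Dusp6 in 2 (WT 2 or I53A 1). Both calls were lost with normexp, the 2 groups alone and within slide 1, that of Fgf5 also with the replicate block and that of Dusp6 with 75th percentile scaling.

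Of 10 naive genes Tbx3 rose in KO by 1.84 log2 units (SE 0.28, limma adjusted p 0.00537), from 7.97 ± 0.30 to 9.81 ± 0.30, with 8.23 ± 0.41 in I53A, and it was also higher in KO than in I53A (1.58, adjusted p 0.027), a call lost without KO 1, KO 2, KO 3, I53A 2 or I53A 3, with the replicate block and with the 2 groups alone. Both calls were lost with normexp and within slide 1. Prdm14, given above, belongs to this list too. The list median was -0.28 in KO and -0.50 in I53A. None of this list passed in I53A against WT. At an unadjusted p under 0.05, 5 of 10 were lower and 0 higher there, against 9.78% of all genes in either direction.

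Germline genes whose promoters are known to be CpG-methylated in somatic cells gave the largest counts. Of 20 measured, 11 rose and 1 fell in KO and 5 rose in I53A, with medians of 1.71 and 0.58. Tex19.1, a germ cell and placenta gene, was the most even, with means of 7.91 ± 0.02 in WT, 10.85 ± 0.04 in KO and 9.22 ± 0.03 in I53A. Tuba3a, a testis tubulin, rose in KO by 4.59 log2 units (SE 0.39, limma adjusted p 0.000163), and the meiotic genes Syce1 and Fkbp6 by 4.11 (SE 0.35) and 4.10 (SE 0.24). Mael, a gene of transposon silencing, rose by 3.11. In I53A these 5 genes rose as well, by between 1.31 and 3.22. The I53A call of Tex19.1 was lost without any 1 of the WT or I53A arrays, that of Tuba3a without WT 1, WT 2, WT 3, I53A 2 or I53A 3, and that of Syce1 without WT 3. All 5 I53A calls were lost within slide 1, those of Syce1 and Tex19.1 also with the replicate block, those of Syce1 and Tuba3a with normexp, those of Tex19.1 and Tuba3a with 75th percentile scaling, and that of Tex19.1 with the 2 groups alone. Dazl, an RNA-binding protein of germ cells, was above background only in KO, 9.19-fold above WT after the raising of low signals described for Tet2. Ddx4, Stk31, Mov10l1 and Asz1 were also below background in WT, with rises of 6.41-fold, 7.73-fold, 4.69-fold and 5.29-fold (Asz1 above background on 2 of 3 KO arrays). The raising left these 4 folds unchanged, so they are estimates and not lower bounds. Rpl10l rose by 1.07 and was lost from the calls in 5 of 9 fits that left out 1 array, those without WT 1, WT 2, WT 3, KO 2 or KO 3, and with normexp, the replicate block and within slide 1. The KO calls of Mov10l1, Stk31 and Sycp3 were lost within slide 1 and that of Asz1 with normexp. Sycp3, of the synaptonemal complex, was the 1 that fell (-1.57, SE 0.23, adjusted p 0.00365). KO lay above I53A at Asz1, Dazl, Tex19.1 and Tuba3a, and leaving out 1 array ended this call for Dazl (KO 1, KO 3 or I53A 1) and for Tuba3a (every array but KO 1 and I53A 3). All 4 were lost within slide 1, those of Asz1 and Tuba3a also with normexp, that of Dazl with the replicate block, and that of Tuba3a with 75th percentile scaling, slide as a block and the 2 groups alone. Methylation itself was not measured in these data.

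**Figure D4:**
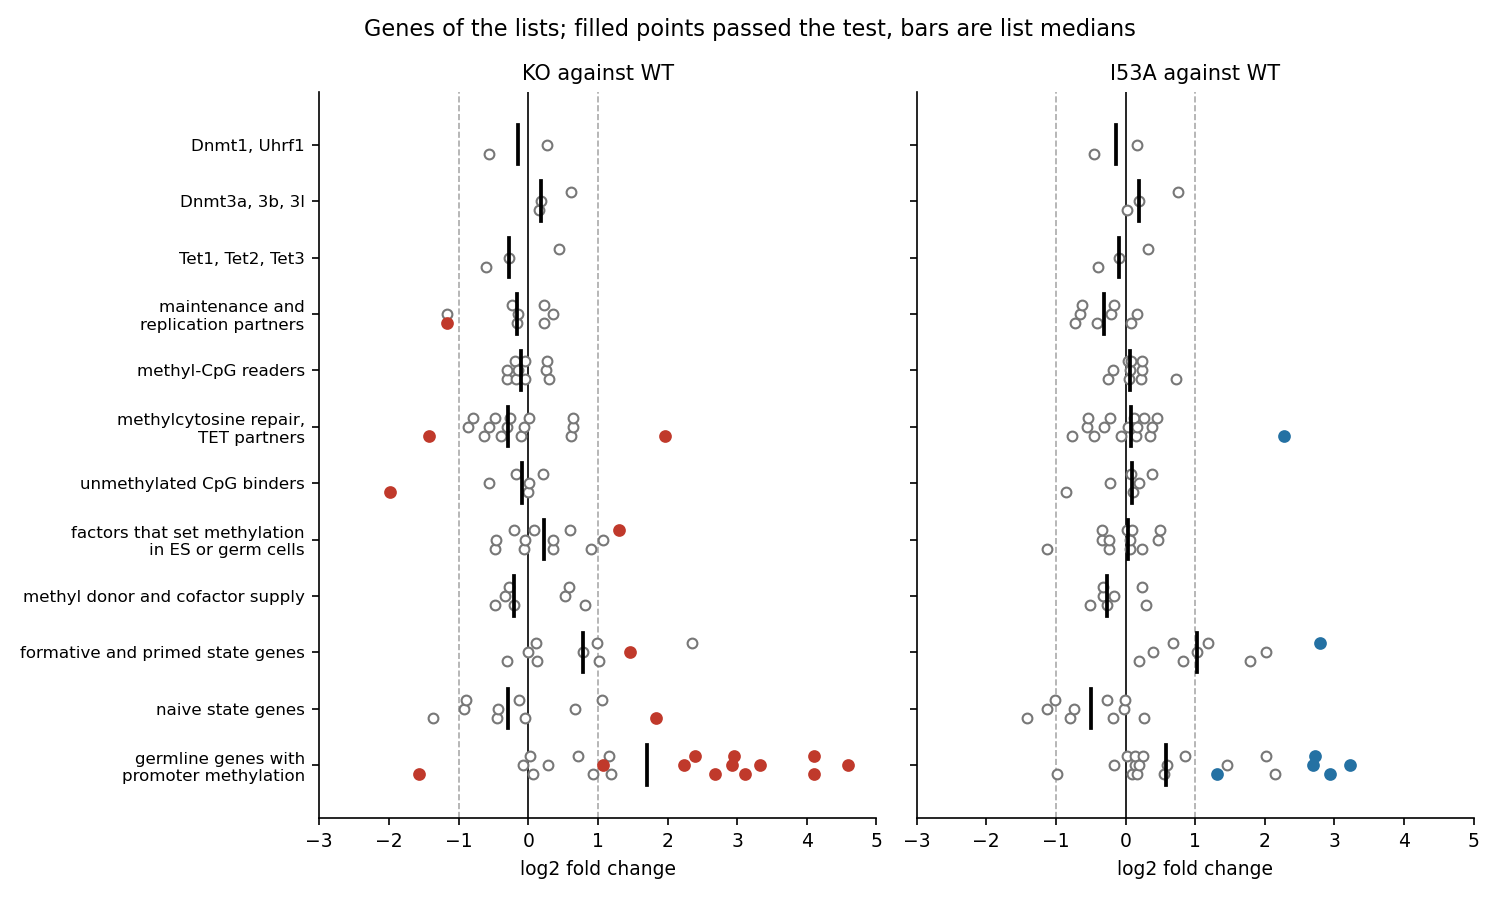
Log2 fold change of each gene of the 3 member groups and the 9 lists in KO and I53A against WT; filled points passed adjusted p 0.05 in limma, open points did not, black bars mark list medians and dashed lines a 2-fold difference. No member is filled, and most filled points are germline genes, 12 in KO and 5 in I53A.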

How the data were processed

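Each of the 9 arrays was scanned and read by the authors with Agilent Feature Extraction 11.5.1.1, and the deposited scan files hold intensity values per spot with flags for background, saturation and outliers. The deposited series table holds log2 intensities that the authors averaged over repeated probes and quantile normalised, for the 30170 probes they kept. It also holds the authors' group means, log2 fold changes, p-values and adjusted p-values against WT, which were not used. Here the processed signal was taken without control and outlier spots, averaged per probe, put on the log2 scale and quantile normalised over 55681 probes, and the tests ran on those that the table keeps. A linear model over all 9 arrays (R 4.3.3, limma 3.58.1, 6 residual degrees of freedom) gave 3 comparisons, with Benjamini-Hochberg adjustment over all probes of a comparison. A call needed an adjusted p under 0.05 and over 2-fold. For named list genes, whether a call was kept under an alternative was judged by the adjusted p alone. One probe had no value in I53A, which left 21676 genes in its comparisons. Symbols were found for 26948 probes and not for 3222. Tables were prepared with Python 3.11.15 and pandas 2.3.3, and the steps were tested on simulated data. The number of arrays limits the precision.

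The members and lists were chosen with earlier results of these data known. Named were all members, the list genes past the test in any comparison, the gene of lowest p in KO of each list without one (1 such gene is not reported here), and for 2 members the 3 genes with the most similar profile. Alternatives were normexp with an offset of 50 (on the median spot signal, since the scan files used here hold no mean signal), scaling to the 75th percentile, the deposited values, leaving out dim probes, slide or replicate number as a block, slide 1 alone, the 2 groups alone, the mean of a gene's probes, and leaving out each array. RefSeq positions and promoters are of GRCm38. The genome build of the array design is not given in the sources used here, and no protein sequence was used.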

Additional observations from a re-analysis of the deposited data

How the results depend on the processing

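No member gene passed the test under any alternative, and the lowest adjusted p values reached were 0.082 for Dnmt1 and 0.0916 for Dnmt3l in KO against WT, 0.0981 for Dnmt3b in I53A against WT and 0.113 for Dnmt3b in KO against I53A. Of 429 recomputed member differences 400 kept their direction and 29 turned, all of the latter without a call. The differences of Dnmt3a, below background on every array, are given here only to account for the turns. In KO against WT the turned log2 fold changes were those of Dnmt3a (-0.00 with normexp, -0.12 with 75th percentile scaling, and -0.01 to 0.44 when 1 array was left out), and of Dnmt3b (-0.26) and Tet1 (-0.27) with the mean of all probes. In I53A against WT they were Dnmt3a (-0.00 with normexp, -0.05 with 75th percentile scaling, -0.18 to 0.31 with 1 array left out), Dnmt3l (-0.07 within slide 1), Tet1 (-0.04 with the mean of all probes) and Tet3 (0.03 with normexp, 0.07 with the mean of all probes, -0.20 to 0.03 with 1 array left out). In KO against I53A they were Dnmt1 (0.11 with 75th percentile scaling), Uhrf1 (-0.13 with the mean of all probes, -0.05 to 0.32 with 1 array left out), Dnmt3a (-0.07 with 75th percentile scaling, -0.12 within slide 1, -0.10 to 0.33 with 1 array left out), Tet1 (-0.04 within slide 1, -0.23 with the mean of all probes, -0.00 to 0.22 with 1 array left out) and Tet2 (0.17 within slide 1, 0.20 with the mean of all probes). The turns with the mean of all probes follow from probes of a gene that disagree in sign. For the other turns the cause was not tested.

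The numbers of probes called moved more. In KO against WT 824 were higher (232 with normexp, 290 within slide 1, 456 to 792 with 1 array left out) and 335 lower (92, 42 and 151 to 313). In I53A against WT 71 were higher (25 with normexp, 35 with 75th percentile scaling, 183 with dim probes left out, 1 within slide 1, 34 with the 2 groups alone, 16 to 62 with 1 array left out) and 28 lower (9 with 75th percentile scaling, 85 with dim probes left out, 17 with slide as a block, 1 within slide 1, 11 with the 2 groups alone, 5 to 25 with 1 array left out). In KO against I53A 289 were higher (101 with normexp, 61 within slide 1, 180 with the 2 groups alone, 147 to 254 with 1 array left out) and 111 lower (31 with normexp, 73 with 75th percentile scaling, 180 with dim probes left out, 2 within slide 1, 33 with the 2 groups alone, 30 to 72 with 1 array left out). Slide 1 held 2 arrays of each group.

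The counts over member probes and lists were recomputed after seeing the data. The list counts needed both an adjusted p under 0.05 and over 2-fold. They can therefore be lower than the lost calls of named genes above would leave. With dim probes left out 1 member probe passed in KO against WT, and 0 to 1 with 1 array left out. List genes that rose in KO numbered 6 with normexp, 8 within slide 1 and 11 to 15 with 1 array left out, and those that fell 1, 1 and 2 to 4. Germline genes that rose in KO numbered 6 with normexp and 10 to 11 with 1 array left out. In I53A 3 list genes rose with normexp, 4 with 75th percentile scaling, 14 with dim probes left out, 0 within slide 1 and 3 to 7 with 1 array left out, of which germline genes were 3, 3, 8, 0 and 2 to 5, and 1 fell with dim probes left out. Between KO and I53A 1 list gene was higher with normexp, 0 within slide 1, 3 with the 2 groups alone and 2 to 5 with 1 array left out, and 1, 0, 0 and 0 to 2 were lower. Germline genes higher there numbered 1 with normexp, 0 within slide 1 and 2 to 4 with 1 array left out.

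No clear pairing by replicate number was seen. Over 9 same-numbered pairs the correlation of deviations from the group means ran from -0.367 to 0.336, and 3 were over 0.1. Over 10 pairs on the same slide with another number it ran from -0.204 to 0.387, and 5 were over 0.1. Deviations from a mean of 3 arrays are tied to each other, so these correlations cannot exclude pairing. With the replicate number as a block no member gene passed, and the Tet1 probe A_30_P01030720 had an adjusted p of 0.0923. The block left 584 probes higher and 213 lower in KO against WT, 19 and 6 in I53A against WT, and 163 and 31 in KO against I53A. Under it 4 list genes rose in I53A, 3 of them germline genes, and 3 were higher and 1 lower in KO than in I53A.

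The median difference of all genes in KO against WT was -0.02, and -0.07 with 75th percentile scaling. Dnmt3a was below background on every array, so the signs of its differences above carry no order. The dimmer Tet2 probe was well above background on only 1 WT array and on no mutant array. With 3 arrays a group a 2-fold difference was within the interval of several members.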
